A study of Drosophila melanogaster with 2 samples.

Results

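Among the 20 peaks with the highest signal for GFP-tagged Ken in Drosophila melanogaster embryos, 4 had no CGATA within 100 bp of the summit on either strand. CGATA is the core of the word recognised by the promoter factor DREF and by the boundary protein BEAF-32. The 4 peaks lay at Sox14, Adf1, org-1 and milt. They were chosen by their signal in the conservative list of both replicates and by the absence of that word, so neither property is a finding here and neither was tested. The conservative list held 2087 peaks, 1.37% of 152561 ranked candidates, and 2031 of them were on the main chromosome arms. On those arms 502 peaks, 24.7%, lacked the word. The data came from chromatin of whole embryos, 0 to 24 h old, of the strain ken-GFP, which carries an insertion targeting ken and expresses its fusion with eGFP. Chromatin fragments of 200 to 800 bp were recovered with an antibody against GFP, although another label field names ken as the antibody. There was 1 group with 2 biological replicates, and no mock or input library was analysed here. Whole embryos mix all tissues and stages of that day, so a peak cannot be placed in a cell type. Read depth and the scale of the signal are unknown.

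Ken and Barbie, or Ken, carries a BTB domain and zinc fingers and represses some of the genes that STAT activates. DREF and BEAF-32 bind mainly beside the start sites of genes used in most cells. The genes of the 4 peaks have varied roles. Sox14 encodes an HMG-box transcription factor induced by ecdysone at metamorphosis. Adf1 encodes a MADF-domain transcription factor first described at the alcohol dehydrogenase gene. The org-1 gene encodes a T-box factor of muscle and visceral mesoderm. The milt gene encodes Milton, the adaptor that couples mitochondria to kinesin.

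The bases within 100 bp of the summits of org-1 and milt are shown to make the missing word visible, next to those of Ube3a, a peak of the same rank range that has the word. Sequence is from the RefSeq release 6 assembly, which has dm6 coordinates, plus strand, 5′ to 3′. Capitals mark the tandem repeat at org-1 (chrX:8452273-8452473), GAGAG or its complement at milt (chr2L:7049037-7049237), and CGATA or its complement at Ube3a (chr3L:11210536-11210736).
org-1: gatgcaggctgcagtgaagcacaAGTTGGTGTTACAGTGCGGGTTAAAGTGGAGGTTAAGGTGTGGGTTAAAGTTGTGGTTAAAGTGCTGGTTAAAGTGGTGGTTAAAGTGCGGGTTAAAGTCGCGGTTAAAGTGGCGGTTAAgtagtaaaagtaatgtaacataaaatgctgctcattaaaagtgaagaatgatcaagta
milt: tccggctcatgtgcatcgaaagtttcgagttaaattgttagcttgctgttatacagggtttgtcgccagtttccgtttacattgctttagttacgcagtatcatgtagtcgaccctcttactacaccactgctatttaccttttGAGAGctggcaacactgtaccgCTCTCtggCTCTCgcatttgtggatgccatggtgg
Ube3a: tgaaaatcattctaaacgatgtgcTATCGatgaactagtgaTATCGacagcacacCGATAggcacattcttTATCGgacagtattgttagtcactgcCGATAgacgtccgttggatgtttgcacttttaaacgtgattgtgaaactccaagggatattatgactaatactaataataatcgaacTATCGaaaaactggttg

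The Ube3a window held 6 core words. The org-1 window was built on a repeat of a 12 bp unit that spanned 120 bp, from 77 bp before to 42 bp after the summit. GGTTAA occurred 9 times in it, on 1 strand, and all 8 steps between neighbouring occurrences were 12 bp. Taken as 12 bp from the start of each GGTTAA, all 9 copies were distinct, with 6 of 12 positions identical in every copy. The bases of copy 9 after GGTTAA lay past the end of the repeat, so they are flanking sequence. The first 9 bases were alike in 7 of the 9 copies. Copies 1 and 5, which differ only at the last base, and copy 9 are given as examples, with the shared bases in capitals.
copy 1: GGTTAAagtgga
copy 5: GGTTAAagtggt
copy 9: GGTTAAgtagta

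No other conservative window held more than 2 occurrences of GGTTAA, a word chosen after the sequence was seen, and 7.68% of all conservative windows held at least 1. On the main arms this was the only cluster of 9 or more occurrences within the length of 1 window. The summit lay at the last base of copy 5, so the centre of the peak fell inside the repeat. Imperfect tandem repeats of 3 or more copies covered 60.2% of the org-1 window and 0% of the windows of Sox14, Adf1 and milt. Of all conservative windows 4.73% held such a repeat, and the next highest cover was 48.8%. None of the 4 windows had a second copy elsewhere on the main arms, at 80% cover and 80% identity. Such a copy was found for only 34 conservative windows, 1.67% of all, so its absence does not set the 4 apart.

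The ranks in the single replicates lay further apart at org-1 and milt than at Sox14 and Adf1. Sox14 had 519 in replicate 1 and 631 in replicate 2, and stood second in the thresholded list of each. Adf1 had 442 in replicate 1 and 502 in replicate 2, at ranks 5 and 3. Both were high in both replicates. The org-1 peak had 583 in replicate 1, the highest value of that list, and 305 in replicate 2, where its rank was 23. The milt peak had 321 in replicate 1 and 285 in replicate 2, at ranks 10 and 31. The signals of both replicates together were 1157 at Sox14, 941 at Adf1, 895 at org-1 and 590 at milt, at ranks 2, 3, 4 and 15. Each was close to the sum of the replicates, with ratios from 0.973 to 1.01.

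The summits of the replicates fell close together. The replicate 1 and replicate 2 summits were 17 bp to one side and 3 bp to the other of the joint summit at Sox14, and 11 bp to either side at org-1. At Adf1 they were 0 and 4 bp away, and at milt 5 and 0 bp. The peaks were 329 bp wide at Sox14, 319 bp at Adf1, 349 bp at org-1 and 299 bp at milt. The other 16 strongest were as narrow, 256 to 380 bp with a median of 314 bp, while 410 bp was both the median and the highest width of all conservative peaks. All 4 had the highest IDR score, 1000, at which the score is capped, and passed the IDR threshold in each replicate alone. The shares of all conservative peaks with these traits are not given here, so neither trait sets the 4 apart.

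**Figure D1:**
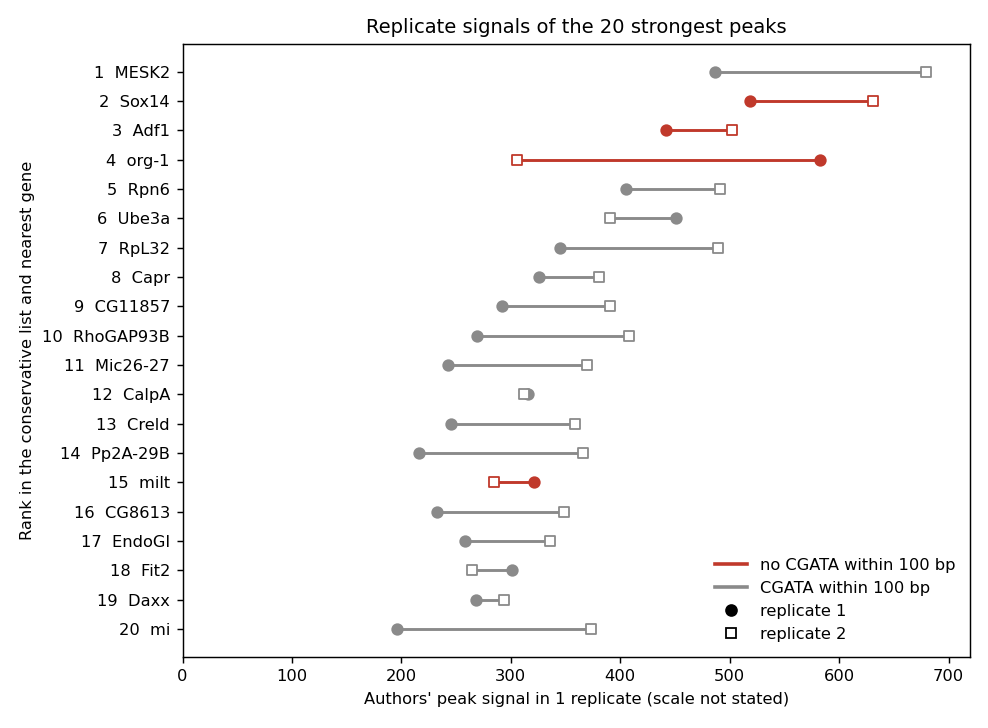
Peak signal in replicate 1 (filled circles) and replicate 2 (open squares) of the 20 strongest conservative peaks, by rank; red marks the 4 peaks without CGATA within 100 bp and grey the 16 with it. The org-1 peak has 583 in replicate 1 and 305 in replicate 2, while most grey peaks are higher in replicate 2.

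The log2 ratio of replicate 1 over replicate 2 was -0.28 at Sox14, -0.18 at Adf1, 0.93 at org-1 and 0.17 at milt. The 1910 conservative peaks matched to a candidate of each replicate had a median of -0.16 and an SD of 0.57, and 38.7% of peaks were higher in replicate 1. The org-1 ratio was at the 96.5 percentile of these peaks and was the highest of the 20 strongest. It was the only one of the 4 that departed from the median by more than 1 SD. Of the 4 peaks 2 were higher in replicate 1, and of the other 16 strongest 3 were. With 2 replicates in 1 group, no test of a single peak was possible.

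The sites differed in their place relative to genes. The Sox14 peak, on 2R at 23978395 to 23978723 (dm6), had its summit in intergenic sequence, 252 bp upstream of the nearest of 3 start sites of Sox14 (FBgn0005612, plus strand). The milt peak, on 2L at 7048985 to 7049283, had its summit 135 bp upstream of an internal start site of milt (FBgn0262872, plus strand). That summit is intronic in the longer milt transcripts, which start 6778 and 11314 bp before it, and the peak overlapped 12 bp of a 5' UTR. Both are promoter sites, but farther upstream than any of the other 16 strongest peaks, whose summits were all upstream of a start site, by 6 to 105 bp.

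The remaining pair were intronic. The Adf1 peak, on 2R at 6662910 to 6663228, had its summit 315 bp from an exon of Adf1 (FBgn0284249, plus strand). It was 802 bp downstream of the nearer of 2 start sites. An antisense noncoding gene, lncRNA:CR45128, ended 323 bp from that summit, and an S transposon of 1735 bp began 1162 bp from it. The org-1 peak, on X at 8452197 to 8452545, had its summit inside org-1 (FBgn0021767, minus strand). The start sites of org-1 were 2496 and 2696 bp from that summit. The edge of the peak overlapped 84 bp of a coding exon, and the summit was 93 bp from that exon. By the limit of 500 bp from a protein-coding start site, 2 of the 4 summits counted as promoter sites. The same held for 16 of the other 16, 247 of the 502 peaks without the word (49.2%, exact 95% interval 44.7 to 53.7) and 80.6% of all conservative peaks. No summit of the 4, or of the other 16 strongest, was within 500 bp of a tRNA gene. Summits that close were found for 61 of the 502 peaks without the word (12.2%), 14 of the 1529 with it and 3.69% of all.

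**Figure D2:**
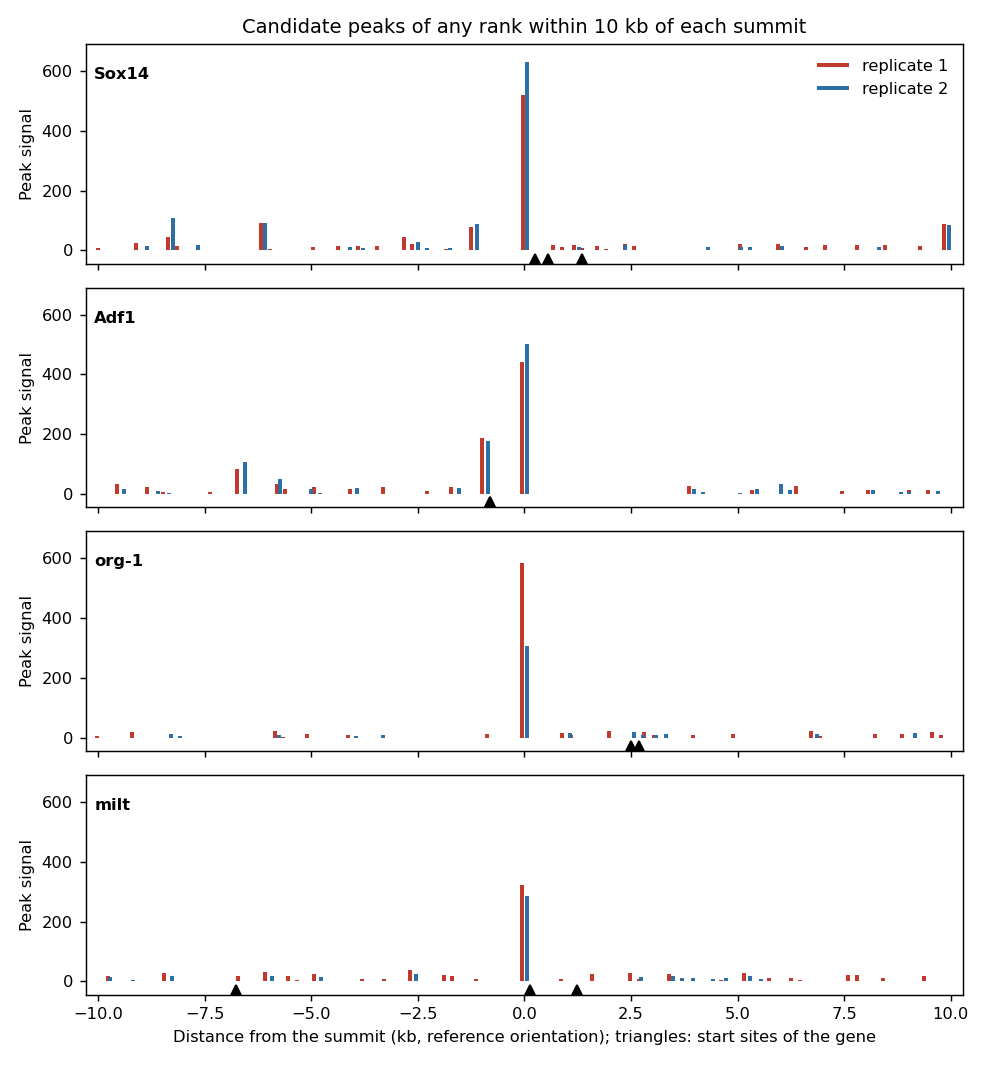
Signal of every candidate peak within 10 kb of the summits of Sox14, Adf1, org-1 and milt, against distance from the summit in kb, in replicate 1 (red) and replicate 2 (blue); triangles are start sites of the gene. At org-1 and milt no other candidate exceeds 39.4 in either replicate.

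Neighbouring peaks were present at Sox14 and Adf1 and missing at org-1 and milt. Within 10000 bp the Sox14 summit had 4 other conservative summits and the Adf1 summit 3. At least 1 was present at 8 of the other 16 strongest and at 59.1% of conservative peaks. The nearest to Sox14 was 1189 bp away at PPP1R15, a regulatory subunit of protein phosphatase 1, with a signal of 165. The others were at mr, a subunit of the anaphase-promoting complex (193), at Phm, an enzyme of peptide amidation (177), and at CG3065 (147). The nearest to Adf1 was 939 bp away, between Adf1 and Dpit47, and its signal was 349 in both replicates together. Its single values were 187 in replicate 1 and 177 in replicate 2. The others were at geminin, an inhibitor of replication licensing (193), and at sced (71.7). The Sox14 signal was 5.99 times that of its strongest neighbour within 10000 bp, and the Adf1 signal 2.69 times. A stronger peak, at PGAP3 (442), lay just past that limit, 10427 bp from the Adf1 summit. PPP1R15 had 77.8 in replicate 1 and 89.0 in replicate 2, and mr had 90.5 and 90.1, so both were well below Sox14 in each replicate. All 7 neighbours within 10000 bp had CGATA within 100 bp of their summits. So did 75.3% of all conservative peaks, and 1391 of the 1638 with a summit within 500 bp of a start site. All 7 neighbours were that close to one, so their count is not read as a result. The intronic Adf1 peak without the word stood beside a weaker promoter peak that held 4 core words.

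At org-1 the strongest other candidate within 10000 bp in the list of both replicates had a signal of 37.4, 23.9 times below the peak. At milt it was 56.8, 10.4 times below. In single replicates the org-1 peak was 25.1 times its strongest neighbour in replicate 1 and 17.3 times in replicate 2, and the milt peak 8.15 and 11.9 times. None of those candidates passed the threshold. The first promoter of milt, 11158 bp from the summit, had a conservative peak of its own with a signal of 169 and 3 core words. Its replicate signals were 106 in replicate 1 and 71.3 in replicate 2.

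The nearest CGATA was 127 bp from the summit at Adf1, 281 bp at org-1, 634 bp at Sox14 and 1232 bp at milt. Adf1 was the member closest to the limit of 100 bp. Among the other 16 strongest peaks the distance had a median of 6.5 bp and reached 53 bp at Mic26-27, and each window held 2 to 7 core words. The 8 bp word TATCGATA was 1024 bp away at Adf1, 1198 bp at Sox14, 8881 bp at org-1 and 16487 bp at milt. The shorter word CGAT, searched after the values were seen, was within 100 bp at milt only among the 4. CGAT is part of CGATA, so windows chosen for CGATA must hold it; of the 502 peaks without CGATA, 321 held it (63.9%).

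**Figure D3:**
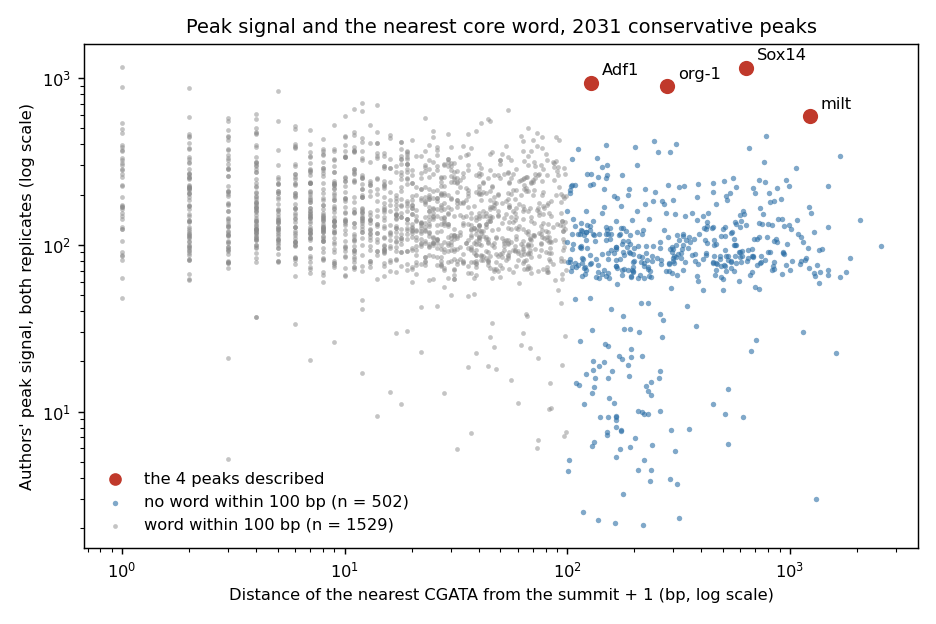
Authors' peak signal against distance of the nearest CGATA from the summit plus 1 bp, both on log scales, for the conservative peaks of the main arms; red points are the 4 peaks described, blue the 502 peaks without the word within 100 bp and grey the 1529 with it. The 4 red points, 590 to 1157, lie above all other blue points because they were chosen by rank. The highest other blue point is 448.

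Few of the other words searched were in these windows. GGTCACACT, the word of the pausing factor M1BP, was in 0 of 4, against 4.28% of all conservative windows. The in vitro word of Ken, GNGAAAG or GNGAAAT, was in 0 of 4, against 2 of the other 16 and 23.2% of all. The STAT words of TTC and GAA with 3 or 4 bases between them were in 0 of 4, against 5.66% and 6.20% of all. The E-boxes CACGTG and CAGCTG were in 0 of 4, against 3.20% and 12.2% of all. The Zelda word CAGGTAG and the repeat CACACACA were also in 0 of 4, against 0.935% and 2.86% of all. GAGAG, bound by GAGA factor, occurred 3 times at milt, nearest 46 bp from the summit, and in 19.1% of all windows. TATAAA occurred once at Adf1, 20 bp from the summit, and in 26.3% of all. Words were sought on both strands and could overlap. A missing word says only that these letters are not in the window.

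The windows shared only short words with each other, and what other pairs of windows share is not given here. No word of 6 bp was in all 4, and 12 words of 6 bp were in 3, each of which was in 6.99% to 39.1% of all conservative windows. No word of 8 bp was in 3. The longest word common to a pair was 10 bp for Sox14 and org-1, found in 2 conservative windows, and 10 bp for Adf1 and org-1, found in 6. Sox14 and Adf1 shared 9 bp, found in 2, and milt shared at most 7 bp with any of the others. These counts include the windows of the pair, so a count of 2 means that no other conservative window held the word. A perfect inverted repeat with arms of at least 8 bp was in the Adf1 window only, against 5 of the other 16 and 8.86% of all, a feature also chosen after the sequences were seen. The GC share was 45.8% at Sox14, 44.8% at Adf1, 41.3% at org-1 and 46.3% at milt, with a median of 45.3%. Among the other 16 it ran from 29.4% to 47.3% with a median of 37.6%, so the 4 lay above most of the others although the ranges overlapped. The median was 42.8% over the 502 peaks without the word. Bases that the reference writes in lower case were absent from 3 of the 4 windows, from 2 of the other 16, from 114 of the 502 windows without the word and from 380 of all 2031.

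The peaks just outside the choice were weaker by the rule of choice, and their signals are given for scale only. The last of the 20 strongest was at mi (565) and the next at RpS2 (555), and both held the word. The next peak without the word was at CG13766, at rank 52 with a signal of 448, followed by CG3726 (419) and CG34460 (403), both over 500 bp from a start site. Of the 100 strongest peaks 11 lacked the word (exact 95% interval 5.62% to 18.8%), and of those at ranks 1901 to 2000 on the main arms 64 did (53.8% to 73.4%). Signals at those last ranks were only 7.53 to 41.2. There 51 of the 64 were at promoters, against 19 of 52 at ranks 1801 to 1900, so the last ranks are a different mix of sites. The median signal was 87.1 for the 502 peaks without the word and 144 for the 1529 with it.

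**Figure D4:**
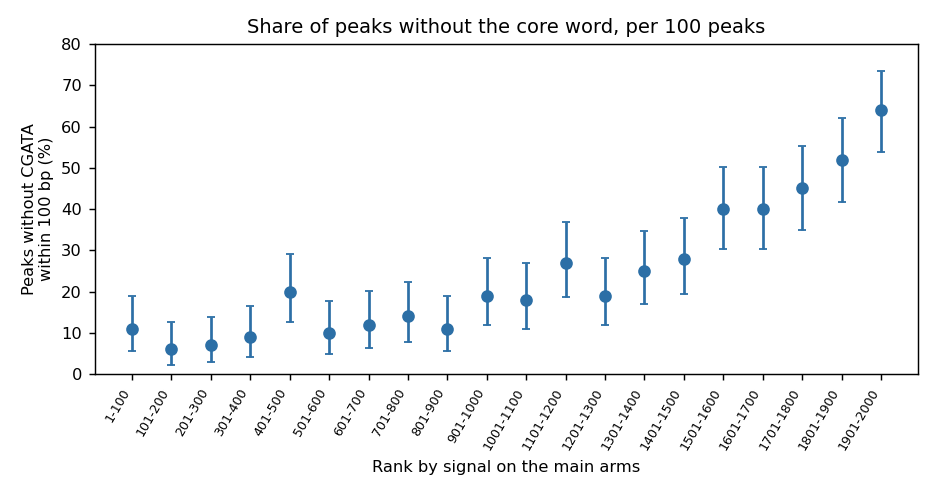
Share of peaks without CGATA within 100 bp, in percent, per 100 peaks by rank of signal on the main arms, with exact 95% intervals. The share is 11% among the strongest 100 and 64% at ranks 1901 to 2000, where signals are only 7.53 to 41.2.

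Across the whole list, peaks without the word leaned towards replicate 1. Of 427 such peaks matched in each replicate 59.7% were higher in replicate 1 (exact 95% interval 54.9 to 64.4), against 32.6% of 1483 with the word (30.3 to 35.1). Some matched values can be those of a neighbouring candidate, and peaks that share one are not independent. The joint signal over the sum of the replicates had lower quartiles of 0.929 without the word and 0.960 with it. Its lowest values were 0.00762 and 0.0158. Distance from start sites moved with the difference between the shares. At promoters the shares were 40.0% without the word and 29.5% with it, and over 500 bp from a start site they were 75.5% and 65.2%. Of the 4 peaks, org-1 (over 500 bp from a start site) was higher in replicate 1 and Sox14 (at a promoter) was lower, on the more frequent side of their classes. The promoter peak at milt was higher in replicate 1 and the intronic Adf1 peak lower, on the less frequent side.

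**Figure D5:**
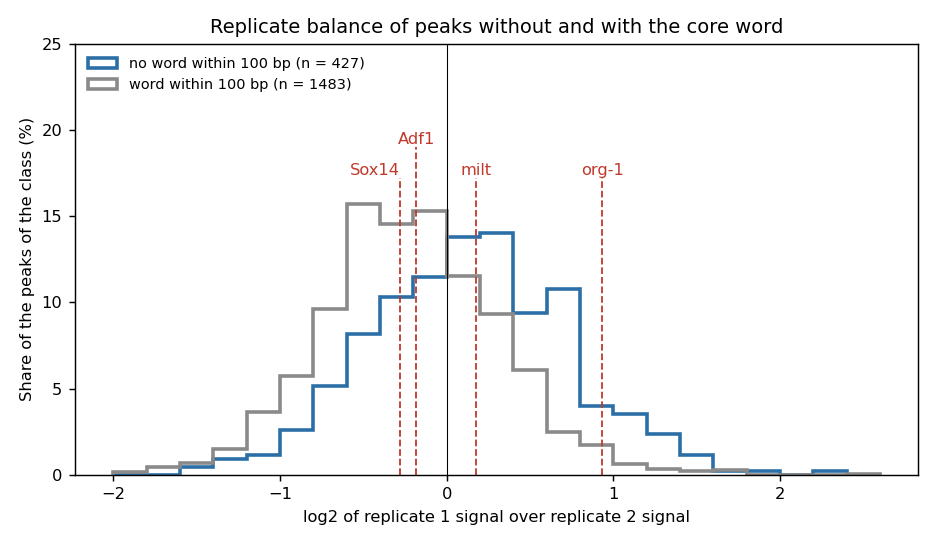
Distribution of the log2 ratio of replicate 1 over replicate 2 signal, as a share of each class in percent, for 427 peaks without the word within 100 bp (blue) and 1483 with it (grey); red dashed lines mark the 4 peaks. The medians are 0.16 without the word and -0.23 with it, and org-1 lies at 0.93.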

How the data were processed

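Peak lists from ChIP-seq of 2 biological replicates were used as the authors deposited them, on dm6 per the labels. The lists are ranked or thresholded on the irreproducible discovery rate (IDR), per the deposited notes. In the sources used here, aligner and peak caller are not given. The signal of a peak and its score, capped at 1000, are the authors' values, and the global IDR is deposited as −log10. The scale of the signal is not stated, and read depth is unknown. In the lists of both replicates, 16 columns with values of single inputs have no header and were not used.

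Replicate signals were those of the nearest candidate summit within 200 bp. Start sites came from Ensembl release 115 and sequence from RefSeq. Of the peaks on the main arms, 0 ended beyond their arm. Analyses used Python 3.11.15, pandas 2.3.3 and blastn 2.17.0. Tandem repeats had units of 1 to 60 bp, at least 3 copies and a score of at least 15 (match 1, mismatch -1). The repeat, word and distance searches were tested on simulated sequence. Intervals are exact Clopper-Pearson and treat peaks as independent. No hypothesis was tested: the peaks were selected by their values, and members, words and lists were chosen with earlier results of these data known. Named genes were the 4 genes, the peaks beside the thresholds, and peaks and genes near the summits. Sequence of some windows is not reported here.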

Additional observations from a re-analysis of the deposited data

How the results depend on the processing

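All 4 peaks were among the 20 strongest in the other thresholded list and in that of replicate 1 alone, but 2 were in that of replicate 2 alone, so leaving out a replicate gave 2 to 4. The 4 peaks lacked the word within 50 bp and at the summits of each replicate, and 3 lacked it within 150 and 250 bp, because Adf1 has it 127 bp away. With a promoter of 200 bp, 1 summit was at a promoter in place of 2, and with 1000 bp 3 were, Adf1 being 802 bp away. Within 5000 bp, Sox14 and Adf1 each had 1 neighbouring peak, and within 20000 bp Adf1 had 6 and milt 2. Repeats covered 91.1% of the bases within 50 bp of the org-1 summit and 30.2% of those within 200 bp. The replicate ratios were the same with matching within 100, 200 or 500 bp. The replicate summits were at most 17 bp from the joint summit, so that setting could not change them. After centring on the median of all conservative peaks the signs were kept, but the Adf1 value was only -0.024. In settings added after the data were seen, the share of peaks higher in replicate 1 was 54.6% without the word and 32.2% with it when peaks at tRNA genes were left out, and 38.7% and 29.4% at promoters without them. It was 45.3% without the word and 21.7% with it in the 500 strongest peaks. At the promoters among those it was 29.4% (exact 95% interval 15.1 to 47.5) and 21.3% (17.6 to 25.5), and the intervals overlapped. No value here has a read depth behind it, and 2 replicates give no error for a single peak.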
